A study of Mus musculus with 3 samples.

Results

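ATAC-seq uses a transposase to insert sequencing adapters into open chromatin, and a total of 9326 regions were accessible by this assay in both samples of an engineered mouse embryonic stem (ES) cell line without a peak in the wild-type sample. They were chosen by the deposited broad peak lists alone: all peaks of the 3 lists on the 16 autosomes other than 6, 8 and 11 were merged wherever they touched, and a merged region was kept when it was covered by a SOX2-ON and a SOX2-OFF peak and by no CEpiLC peak. This left 9326 of 144115 merged regions, or 6.47%, and 17.2% of the 54303 regions that SOX2-ON and SOX2-OFF both covered. All 3 samples were HM1 (129) cells differentiated for 72 h in medium with 10 ng/ml bFGF and 5 µM LGK974, an inhibitor of WNT secretion, to which CHIR99021, an activator of WNT signalling, was added after 2 days. CEpiLC (caudal epiblast-like cells) was wild type and untreated. SOX2-ON and SOX2-OFF both carried the genotype Sox2-/- and a doxycycline-inducible Sox2 transgene in the Hprt locus. Doxycycline, at 1 µg/ml in the ES cell culture, was maintained through differentiation in SOX2-ON and withdrawn in SOX2-OFF. Per the study's methods, the wild-type control was the HM1 TetON line, which expresses the reverse tetracycline transactivator from Rosa26 and is the parent of the engineered line. The engineered line was made by gene editing and picking of clones and was adapted to 2i medium on the way, and ES cells were kept on feeder fibroblasts. How many clones were used is not given in the sources used here. Each group held 1 sample, so the line's history, its genotype and its library cannot be told apart, replicate error is unknown, and no p-value was calculated.

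As background, an ATAC-seq peak marks a stretch where nucleosomes leave DNA open to the transposase, typically a promoter, an enhancer bound by transcription factors, or a repeat element that has escaped compaction. SOX2 is a pluripotency and neural factor that binds many enhancers of ES cells together with OCT4. GATA factors such as GATA4 and GATA6 direct endoderm and primitive endoderm, and the mouse genome carries very many copies of LINE-1 retrotransposons, which are usually kept closed by DNA methylation and by repressive histone marks.

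Sequences of 2 sets of members carry the results below and are shown first, from the plus strand of mm10. The first set comes from repeated sequences among the members: a family was a set of at least 50 members that matched a central member over at least 200 bp at 80% identity or more, and 6 families were found. For each of the 3 largest, the stretch of 30 bases held by the most members is printed, with CpG in capitals.

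Family 1, held by 335 of 576 members (58.2%), chr1:107823314-107823343: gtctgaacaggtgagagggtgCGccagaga
Family 2, held by 227 of 295 members (76.9%), chr3:91096831-91096860: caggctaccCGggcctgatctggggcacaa
Family 3, held by 117 of 196 members (59.7%), chr10:73764935-73764964: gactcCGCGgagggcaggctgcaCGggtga

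The second set holds the central 200 bp of members outside these families. They are 1 strong member in Macrod2 and members near genes of the streak, extra-embryonic, matrix, FGF and WNT lists. They are shown because they hold the GATA motif AGATAAG or the SOX motif CATTGTT, which are in capitals on either strand.

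Macrod2 intron, chr2:140748679-140748878, GATA in capitals: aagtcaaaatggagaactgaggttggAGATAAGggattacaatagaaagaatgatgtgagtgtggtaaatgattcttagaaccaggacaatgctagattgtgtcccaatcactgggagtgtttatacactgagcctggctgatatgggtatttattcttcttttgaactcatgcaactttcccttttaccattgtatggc
Lamb1, member 35061 bp upstream, chr12:31229384-31229583, GATA then SOX in capitals: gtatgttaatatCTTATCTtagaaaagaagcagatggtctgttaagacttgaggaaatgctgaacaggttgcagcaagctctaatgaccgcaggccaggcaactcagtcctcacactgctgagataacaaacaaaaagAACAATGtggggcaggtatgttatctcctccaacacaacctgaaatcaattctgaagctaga
Gata4 intron, chr14:63231301-63231500, GATA in capitals: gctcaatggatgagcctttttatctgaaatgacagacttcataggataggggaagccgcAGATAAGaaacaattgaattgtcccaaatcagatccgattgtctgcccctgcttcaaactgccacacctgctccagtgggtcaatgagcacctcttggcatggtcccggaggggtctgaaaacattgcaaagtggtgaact
Pdgfra, member 32795 bp upstream, chr5:75118682-75118881, GATA in capitals: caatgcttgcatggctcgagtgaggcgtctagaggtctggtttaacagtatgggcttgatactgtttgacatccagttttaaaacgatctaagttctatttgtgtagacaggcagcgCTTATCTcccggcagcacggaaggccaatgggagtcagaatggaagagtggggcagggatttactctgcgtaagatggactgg
Lamc1, member 25790 bp upstream, chr1:153358748-153358947, SOX in capitals: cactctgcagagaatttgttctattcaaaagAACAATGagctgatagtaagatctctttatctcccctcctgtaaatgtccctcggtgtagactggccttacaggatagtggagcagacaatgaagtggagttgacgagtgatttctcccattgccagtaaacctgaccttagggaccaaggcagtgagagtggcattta
Fgfr2, member 12839 bp downstream, chr7:130149038-130149237, GATA in capitals: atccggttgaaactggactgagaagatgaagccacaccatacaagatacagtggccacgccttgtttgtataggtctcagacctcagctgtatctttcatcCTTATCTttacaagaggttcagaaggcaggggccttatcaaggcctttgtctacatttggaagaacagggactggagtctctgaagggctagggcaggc
Sp8, member 9420 bp downstream, chr12:118862288-118862487, SOX then GATA in capitals: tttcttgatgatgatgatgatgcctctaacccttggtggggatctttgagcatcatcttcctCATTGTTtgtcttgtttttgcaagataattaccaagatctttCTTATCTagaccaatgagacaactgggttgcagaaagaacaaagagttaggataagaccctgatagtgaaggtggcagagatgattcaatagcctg

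The deposited lists were of similar length, with 129843 SOX2-ON, 131520 SOX2-OFF and 130348 CEpiLC peaks, but not of similar strength. The peaks at rank 20000, where rank 1 has the highest −log10 p, stood at 26.4, 21.2 and 10.6 in the SOX2-ON, SOX2-OFF and CEpiLC lists, and 37.7%, 34.3% and 22.4% of peaks reached a −log10 q of 5. Fold enrichment, the deposited ratio of read pileup to local background, and the −log10 p both depend on sequencing depth, which is unknown here, so ranks within a list are used beside them. Chromosomes 6 and 8 held 7525 and 5675 further regions of the same description, 27.8% and 25.5% of their regions, and chromosome 11 held 255, or 1.07%. None of these is a member, and over the 16 chromosomes used the share of members lay between 5.30% on chromosome 17 and 7.61% on chromosome 14. Promoter peaks of all 5 epiblast markers looked up (Pou5f1, Utf1, Dnmt3b, Otx2, Fgf5) and of all 5 caudal epiblast markers (T, Cdx1, Cdx2, Nkx1-2, Fgf8) were in every list, and of 10 fibroblast markers 6 had a promoter peak in SOX2-ON and 7 each in SOX2-OFF and CEpiLC, while Col3a1, Postn and Lum had none in any list. The start of Sox2 itself lay in a peak of every list, with fold enrichments of 2.999, 2.52 and 2.46 for SOX2-ON, SOX2-OFF and CEpiLC, which checks nothing about an edit inside the coding sequence, and none of the 15 regions within 50 kb of Sox2 was a member.

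Most of the 9326 regions were weaker and farther from promoters than the regions of all 3 lists, as were the other regions that some list lacked. The median fold enrichment was 1.69 in SOX2-ON, from 1.32 to 6.89, and 1.58 in SOX2-OFF, from 1.24 to 5.57. Regions of all 3 lists had medians of 2.07 and 1.98. The median member ranked 66789th in SOX2-ON and 72502nd in SOX2-OFF, and 1886 members, or 20.2%, were under a −log10 q of 2 in both lists. Only 1208 members, or 12.95%, reached a −log10 q of 5 in both. The nearest CEpiLC peak was a median of 5276 bp away and lay within 1 kb of 890 members. Of all members, 1036, or 11.1%, lay within 1 kb of a transcription start, against 37.6% of the regions in all 3 lists, 12.1 and 13.2% of those CEpiLC shared with SOX2-OFF or SOX2-ON alone and 8.76 to 10.1% of those in 1 list. The fold enrichment of these other regions had medians of 1.499 to 1.696. Of the members, 36.2% were in introns, 12.3% in exons and 40.3% between genes. The 10 members nearest to a CEpiLC peak were 1 to 6 bp from it, with SOX2-ON values of 1.39 to 1.84, and the 10 regions that were kept out by the weakest CEpiLC peaks had CEpiLC values of 1.49 to 1.55 and SOX2-ON values of 1.48 to 1.67. The boundary therefore ran through regions of near equal strength.

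How often CEpiLC lacked a region shared by both engineered-line samples varied with the strength of the region and with its sequence. Regions were ordered by the worse of their SOX2-ON and SOX2-OFF ranks. None of the 3256 regions with both ranks within 5000 was missing from CEpiLC, for which the upper limit of the 95% Wilson interval was 0.118%. Of those with worse ranks between 15001 and 20000, CEpiLC lacked 1.69%, and of those beyond rank 100000, 39.3%. Split by sequence, the shares fell into separate courses. Among 687 regions of 3 repeated sequence families described next with both ranks within 40000, CEpiLC lacked 64.3% (95% Wilson interval 60.7 to 67.8%). Among 750 other regions whose bases were at least 50% soft-masked in the reference genome, which marks repeats, it lacked 13.2% (10.96 to 15.8%). Among 20887 remaining regions of that strength it lacked 1.26% (1.12 to 1.42%). The intervals treat regions as independent and cover counting error only. The families were found by aligning members, so their share is partly fixed by how they were defined.

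**Figure D1:**
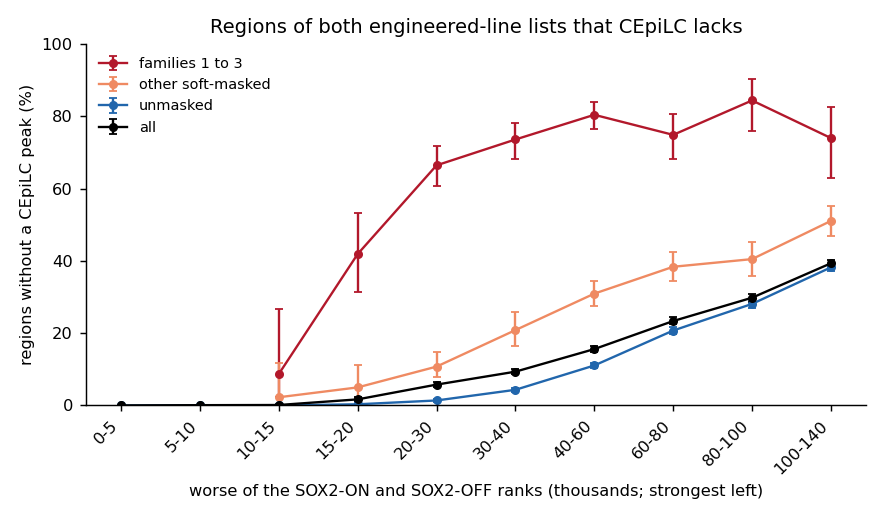
Share of the regions covered by both SOX2-ON and SOX2-OFF that had no CEpiLC peak (vertical axis, %), by the worse of the 2 ranks, divided by 1000 (horizontal axis), for all regions, for sequence families 1 to 3, for other regions with at least 50% soft-masked bases and for the remaining regions. Bars are 95% Wilson intervals and points with under 20 regions are left out. The families rose to 66.4% by ranks 20001 to 30000, where the unmasked regions stood at 1.38%. The families were defined from members, which partly fixes their shares.

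Families 1, 2 and 3 held 576, 295 and 196 members, together 1067 or 11.4% of all members, and 34 of the 51 strong members, which ranked within the first 20000 peaks of both lists. They were spread over all 16 chromosomes, and 69.5% of their members were intergenic. Members matched the central member of their family at a median identity of 87.9%, 93.4% and 87.1%. Where copies are alike, reads can be placed on the wrong copy, so values at the families are uncertain. Their median GC content in the central 200 bp was 64.5%, 63.0% and 65.5%, and their members held a median of 4.77 CpG per 100 bp, against 1.17 in the unmasked distal members. A central member of each family, read together with flanking sequence on either side, matched itself best at a shift of 214, 201 and 204 bp. There 38.6%, 36.1% and 41.2% of bases were identical, against a median of 26.1%, 26.0% and 26.7% over all shifts tried.

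The 8048 members in none of the 6 families held the family 1 stretch in 45 cases, the family 2 stretch in 0 and the family 3 stretch in 12. A long reading frame lay beside many members, nearly always on the same side in the orientation of the family: within 7500 bp, a run of at least 1000 codons without a stop was found in 332 of 575 members of family 1, 125 of 294 of family 2 and 65 of 195 of family 3, against 4, 2 and 0 on the other side. Where it was present, a second frame of a median 384, 379 and 407 codons accompanied it. As background, a full-length mouse LINE-1 element has a CpG-rich promoter followed by a short and a long reading frame. Repeat annotation was not used, so the families are named by number. Families 4, 5 and 6, with 84, 72 and 55 members, a GC content of 44 to 46.5% and no frame of 1000 codons on either side, did not share these features.

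Because the families were found by aligning members, and other regions were assigned by their match to a member, their weight among members is partly fixed by how they were defined. Families 1 to 3 made up 11.4% of members, 0.914% of regions in all 3 lists, 1.07% of regions in SOX2-ON only, 0.587% of those in SOX2-OFF only and 0.0658% of those in CEpiLC only. Of the 1478 regions of these families that SOX2-ON and SOX2-OFF both covered, CEpiLC lacked 1067, or 72.2% (69.9 to 74.4%), against a background of 17.2%. The share was 64.9% in family 1, 81.5% in family 2 and 85.6% in family 3, and 27.6 to 56.3% in families 4 to 6. In the 411 regions that CEpiLC did cover, the median fold enrichments of the SOX2-ON, SOX2-OFF and CEpiLC peaks were 2.33, 2.15 and 1.81. The members' own medians were 2.13 and 1.89. Because the lists differ in strength, the counts were also taken over each list as a whole: families 1 to 3 supplied 1745 of 83488 SOX2-ON regions (2.09%), 1631 of 86039 SOX2-OFF regions (1.896%) and 485 of 91938 CEpiLC regions (0.528%).

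The chromosomes outside the choice gave the same measure in the same libraries without having been used to choose members or define families. On chromosomes 6 and 8, families 1 to 3 made up 1.73% of SOX2-ON, 1.91% of SOX2-OFF and 1.085% of CEpiLC regions, where the lists held 34201, 35794 and 11615 regions. On chromosome X, where few regions lay, they made up 6.51% (5.43 to 7.78%), 5.76% (4.67 to 7.097%) and 0.998% (0.543 to 1.83%). On chromosome 11 the shares were 0.901%, 0.787% and 0.650%, and their intervals overlapped; there CEpiLC covered 141 regions of these families against 64 and 58, and 21689 regions in all against 7102 and 7374. Of these 3 groups of chromosomes, CEpiLC had the lowest share with intervals apart on 2, chromosomes 6 and 8 and chromosome X. The intervals treat regions as independent, which copies of a sequence are not, so they are too narrow. The families were built from members, which CEpiLC lacked by choice, and the libraries were the same. These chromosomes are therefore not an independent check. The smallest peak, whose width the caller sets by default from the fragment length, measured 162, 196 and 149 bp in the SOX2-ON, SOX2-OFF and CEpiLC lists. CEpiLC was thus lowest in this width and in the strength of its list as well as in the coverage of the families, and their part in the result was not tested.

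**Figure D2:**
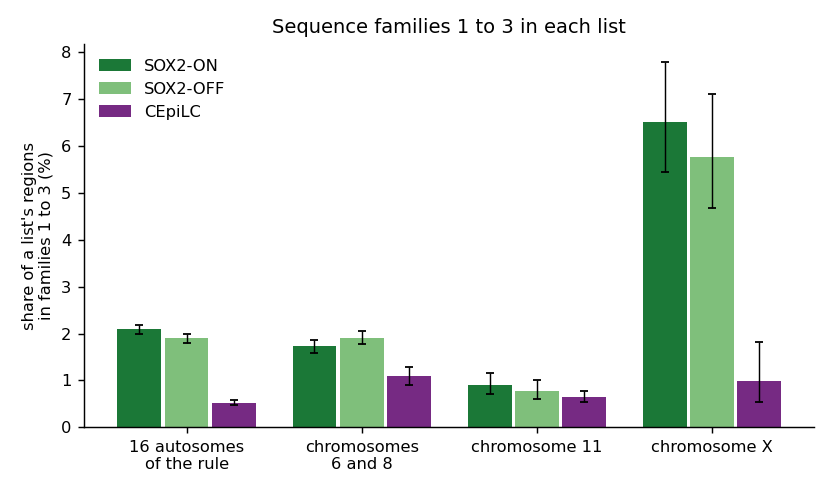
Share of the merged regions covered by each list that belonged to sequence families 1 to 3 (vertical axis, %), on the 16 autosomes used to choose members, on chromosomes 6 and 8, on chromosome 11 and on chromosome X. Bars start at 0, error bars are 95% Wilson intervals, and CEpiLC is lowest in each group, with overlapping intervals on chromosome 11.

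The 12 strongest members, by the worse of their ranks, included 6 of families 1 to 3. The strongest of all, chr16:81036089-81037329, lay 163368 bp from Ncam2, a neural cell adhesion gene, had 6.89-fold enrichment in SOX2-ON and 5.57-fold in SOX2-OFF, ranks 6835 and 5163, and belonged to family 1 with 92763 bp to the nearest CEpiLC peak. Other family members among the 12 lay between genes near Gm5591, Serpinb8 and Gm21833, in an exon of the gene model Gm37324, and in an intron of Pcdh15, a cadherin of the inner ear. Their values ran from 3.57 to 4.68 in SOX2-ON and from 3.25 to 3.64 in SOX2-OFF. A completely soft-masked region near Ogfrl1, chr1:23301072-23302957, had 6.02 and 4.09. An 88.8% soft-masked region at chr14:53571124-53571728, 663751 bp from Dad1, had 4.66 and 3.33. Neither belonged to a family.

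Of the 51 strong members, 10 were unmasked and in no such family, and 4 of all 51 were promoters. Of these promoters 3 lay close together on chromosome 12. The regions at the starts of the gene models Gm40864, Gm20486 and Gm47393, chr12:22623164-22623580, chr12:22274457-22275220 and chr12:23426867-23427320, had a GC content of 76.5%, 74.5% and 75% in the central 200 bp. Their SOX2-ON values were 6.44, 3.27 and 4.07, their SOX2-OFF values 4.41, 3.24 and 2.97, and the nearest CEpiLC peaks were 111067 to 121629 bp away. The fourth strong promoter belonged to Gm14413 on chromosome 2, in a cluster of zinc finger gene models, at 4.35 and 3.25. Reads from near-identical copies can be placed on any of them, so values at such duplicated models are uncertain. At the start of Vcan, which encodes the matrix proteoglycan versican, a member just outside the rank limit had 4.11 in SOX2-ON and 2.44 in SOX2-OFF, and it was named after its value was seen.

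The ratio between the engineered-line samples was taken next, although both values had to pass a threshold for a region to be a member. The median log2 ratio of SOX2-ON over SOX2-OFF fold enrichment was 0.086 over members and 0.101 over regions of all 3 lists, and the middle 50% of members lay between 0.0006 and 0.249. At least 2-fold higher in SOX2-ON were 240 members, or 2.57%, against 0.814% of regions in all 3 lists, and at least 2-fold higher in SOX2-OFF was 1 member, against 0.0778%. Members of families 1 to 3 had a median log2 ratio of 0.152. Families 4, 5 and 6 had medians of 0.374, 0.292 and 0.314. Among unmasked distal members the highest ratios lay near Rnd3, with 5.16 against 1.44, in an intron of Il7, a cytokine gene, with 5.13 against 1.47, and in an intron of Phactr1 with 4.92 against 1.502. The 1 member past 2-fold in the other direction lay between genes on chromosome 9 near Pdgfd, a growth factor gene, with 1.69 in SOX2-ON and 3.72 in SOX2-OFF. These members were named after their values were seen.

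**Figure D3:**
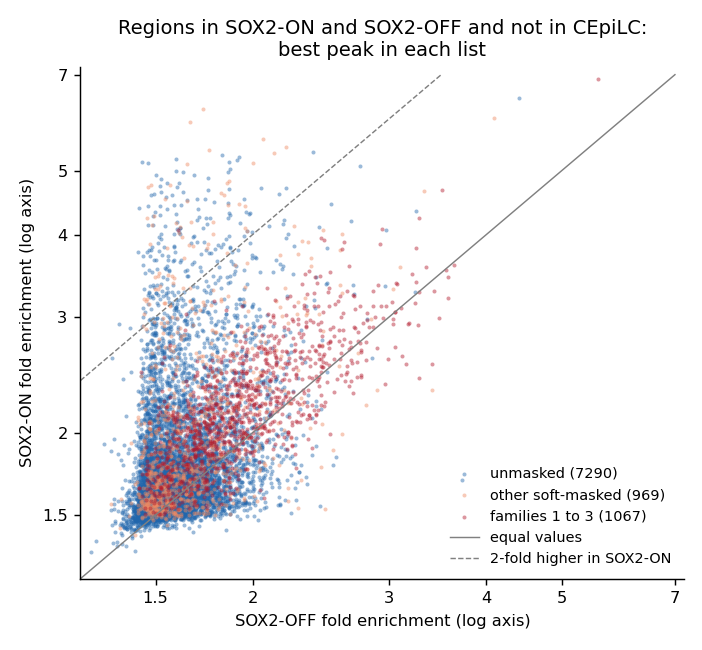
SOX2-OFF (horizontal) and SOX2-ON (vertical) fold enrichment of the best peak in each member, both on log axes, coloured by sequence: unmasked regions, other regions with at least 50% soft-masked bases, and families 1 to 3. The solid line marks equal values and the dashed line 2-fold higher values in SOX2-ON, which 240 members reached; the strongest member, of family 1, is at the upper right, and the 1 member over 2-fold higher in SOX2-OFF lies at 3.72 and 1.69.

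Among strong members alone none was 2-fold apart. The highest ratio belonged to a region between genes 57302 bp from Tle4, a co-repressor of WNT target genes, at chr19:14655353-14656411, with 5.09 in SOX2-ON and 2.75 in SOX2-OFF. The next lay in an intron of Macrod2 with 4.20 and 2.68. The 5 lowest ratios among strong members all belonged to families 1 to 3.

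The 6331 unmasked distal members, which are outside families 1 to 3, over 1 kb from any start and under 50% soft-masked, were searched for 18 short motifs on both strands in the central 200 bp. The GATA motif AGATAAG was found in 359 of them, 5.67% (5.13 to 6.27%), against 2.69% (2.5 to 2.895%) of the 25905 comparable regions in all 3 lists and 3.40% of all 103333 unmasked distal regions. Read backwards, the same letters were in 2.21% and 1.92%. The SOX motif CATTGTT was found in 4.39% (3.91 to 4.92%) against 2.91% (2.71 to 3.12%), with 2.34% and 1.72% read backwards. The TEAD motif ACATTCC was in 4.31% against 3.07%, with 2.58% and 2.21% read backwards. The AP-1 motif TGANTCA was in 8.198% against 6.58%, but read backwards it was also higher, at 5.84% against 4.71%, and it was as common in regions of SOX2-OFF only, at 8.68%, and of SOX2-OFF and CEpiLC, at 8.32%. The combined OCT-SOX motif TTGTNATGC was in 0.790% against 0.544%, with overlapping intervals. The ZIC motif CAGCAGG was in 8.34% against 10.9%, near the 8.19% of regions of SOX2-ON only. The CTCF motif CNAGGGGGC was in 1.17% against 1.83%, where 4 other classes of region held it in 0.609 to 1.06%. GATA letters were about as common in regions of SOX2-ON only, at 5.72%, as in members, and less common in those of SOX2-OFF only, at 3.17%, and of SOX2-OFF and CEpiLC, at 2.37%. The SOX motif was most common in SOX2-ON only, at 7.11%. A match is a description of the letters and does not show that a factor was bound.

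**Figure D4:**
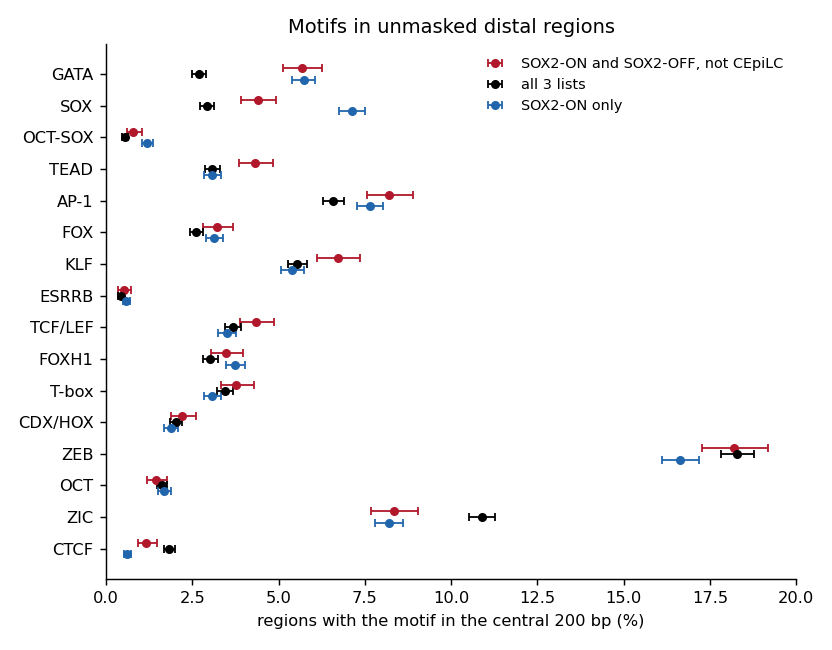
Share of unmasked distal regions (horizontal axis, %) with each motif in the central 200 bp, for members, regions of all 3 lists and regions of SOX2-ON only, with 95% Wilson intervals. Motifs are ordered by the ratio of members to regions of all 3 lists and those found in under 30 members are left out; GATA is at the top, at 5.67% against 2.69%.

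The GATA and SOX motifs went with the ratio between SOX2-ON and SOX2-OFF. Unmasked distal members were divided into 4 equal groups by the log2 ratio, and regions of all 3 lists were placed into the same ranges. In the group highest in SOX2-ON, with median fold enrichments of 2.23 and 1.56, GATA letters were in 164 of 1583 members, 10.4% (8.95 to 11.96%), against 3.45% (2.998 to 3.97%) of 5417 regions of all 3 lists. In the other groups the members' share lay between 3.67% and 4.36%, and that of the shared regions between 2.42% and 2.62%. The SOX motif was in 7.39% of the highest group and 3.03 to 3.92% of the others, against 4.45% and 2.27 to 2.83%. TEAD letters did not follow the ratio in this way, at 5.24% in the lowest group and 4.49% in the highest. Strength moved with the same measure: of the 219 unmasked distal members within rank 40000 in both lists, 10.96% (7.48 to 15.8%) held GATA letters and 7.76% SOX letters, against 4.56% and 3.34% beyond rank 100000. TEAD letters went with strength in the same way, at 7.76% and 3.89%, and ZIC letters at 10.5% and 7.75%. The regions of all 3 lists stayed between 2.48% and 2.93% for GATA. Both motifs were in 23 of the 6331 members, 0.363%, against 0.0656% of the shared regions. The strongest of the 23 lay in introns of Nhej1, a DNA repair gene, with 2.63 in SOX2-ON and 1.90 in SOX2-OFF, and of Pax1, a factor of the sclerotome, with 2.58 and 1.85; the third lay 264193 bp from Pcsk5, which encodes a protein convertase, with 5.16 and 1.86.

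**Figure D5:**
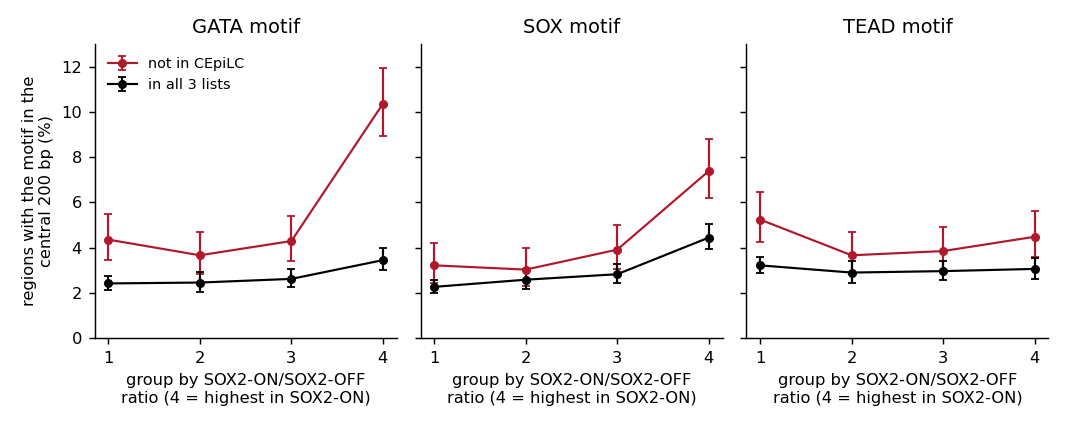
Share of unmasked distal regions with the GATA, SOX or TEAD motif in the central 200 bp (vertical axis, %), in 4 equal groups by the SOX2-ON over SOX2-OFF ratio of members (horizontal axis, group 4 highest in SOX2-ON), for members and for regions of all 3 lists in the same ranges. Error bars are 95% Wilson intervals; GATA reached 10.4% of members in group 4.

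In families 1 to 3 the picture was different. GATA and SOX letters were in 0.562% and 0.187% of the 1067 members, whereas the ZEB motif CACCTG was in 50.8% (47.8 to 53.8%), against 18.2% of the unmasked distal members and 17.9% of all regions shared by the 3 lists. ZEB letters were also in 38.9% of the family regions that all 3 lists covered, 50% of those in SOX2-ON only and 33.6% of those in SOX2-OFF only. The stretch printed for family 1 holds these letters on the other strand, so their share follows in part from the shared sequence. Copies of a sequence are not independent, and the interval is too narrow for that reason.

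Around genes of the lists followed here, members were about as frequent as elsewhere. Over all 11 lists together, 6.24% (5.38 to 7.23%) of the regions within 50 kb of a listed gene were members, against 6.47% of all regions. By list the share ran from 3.42% around caudal epiblast and paraxial mesoderm genes to 9.57% around extra-embryonic genes. The FGF list rested mostly on the long gene record of Fgfr2. Its window held 27 of the list's 32 members and 417 of its 619 regions. It also held 145 of the list's 242 regions of both engineered-line samples, so the FGF shares say little about its other genes. Taken over the regions of both engineered-line samples, whose background is 17.2%, the extra-embryonic windows had 22.8% members (18 of 79) and the caudal windows 5.98% (7 of 117), with 8.79% for anterior neural genes and 11.98 to 17.4% for the 7 remaining lists other than that of two-cell-like genes (16.7%, 2 of 12). Dab2 alone held 6 of the 18 extra-embryonic members. No interval was calculated for single lists, so whether any of them departs from the background was not tested. At least 1 member lay within 50 kb of 54.9% of the 16993 coding genes and the median gene had 1. None of these windows held a strong member, and the windows of the lists overlap where genes are shared.

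Near genes of endoderm and primitive endoderm, of which the members at Gata4, Pdgfra, Lamb1 and Lamc1 are among the sequences above, values are given for the strongest member of each gene. There was no endoderm list, and these genes were picked from the streak, extra-embryonic and epithelium and matrix lists. At Gata4, which encodes an endoderm and heart transcription factor, 4 of 30 regions were members, and the strongest, in an intron, had 3.17 in SOX2-ON and 1.75 in SOX2-OFF. At Gata6, its primitive endoderm relative, the 1 member of 11 regions was intronic, held GATA letters and had 2.12 and 1.74. At Sox17, an endoderm factor, 2 of 13 regions were members, the stronger with 2.16 and 1.80. The 3 members of 15 regions near Pdgfra, a growth factor receptor of primitive endoderm and fibroblasts, were led by 3.46 and 1.87. Lamb1 and Lamc1, which encode chains of basement membrane laminin, had 4 of 35 and 4 of 40, led by 4.15 against 1.75 and by 2.51 against 1.68. Fn1, which encodes fibronectin, had 4 of 32, led by an exonic region with 3.64 and 1.58. Dab2, an endocytic adaptor expressed in primitive endoderm, had 6 of 15, the highest share among these genes, and its strongest was a family 3 region with 2.32 in both. Over all regions 6.47% were members, and counts at single genes, picked here, rest on few regions. Hhex, an anterior endoderm factor, had 1 of 10, with GATA letters and 2.34 and 1.78. Foxa2, a node and endoderm factor, was higher in SOX2-OFF: the stronger of its 2 members of 16 regions had 1.58 in SOX2-ON and 2.28 in SOX2-OFF. Genes of the same lists without a member included Sox7, Cer1, Cxcr4 and Mixl1, with 10, 8, 6 and 13 regions. Others without a member had more regions: Cdh2, Lefty1, Lefty2, Tfap2c and Mesp1, with 26, 25, 24, 23 and 19. All 4 primitive endoderm markers looked up (Gata6, Sox17, Sox7, Dab2) had a promoter peak in every list, with summed fold enrichments of 13.1, 10.7 and 10.1 for SOX2-ON, SOX2-OFF and CEpiLC. The same order was seen for the 5 epiblast markers, at 14.4, 13.4 and 11.6, and for 5 naive pluripotency markers, at 17.96, 15.3 and 13.6. The 5 caudal epiblast markers also had it, at 10.9, 10.5 and 10.15. It was not seen for 4 trophoblast markers, at 9.31, 8.11 and 8.45. The fibroblast sums, 16.22, 16.04 and 16.32, covered 6 genes in SOX2-ON and 7 each in SOX2-OFF and CEpiLC. Acta2 had no SOX2-ON peak and added 1.49 in SOX2-OFF and 1.91 in CEpiLC, so the order of these sums cannot be compared. Col1a2, among them, lies on chromosome 6, which the rule left out. Whether other cells took part in these results was not tested. The promoters of Gata6 and Sox17 themselves were in all 3 lists, with 3.19, 2.02 and 2.03 at Gata6 and 3.41, 3.01 and 2.94 at Sox17 in SOX2-ON, SOX2-OFF and CEpiLC.

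Streak, pluripotency and signalling genes also had members nearby. Gsc, an anterior streak factor, had 1 of 22 regions with 3.38 in SOX2-ON and 1.86 in SOX2-OFF, Eomes had 1 of 13 with 2.45 and 1.74, and Nodal had 2 of 25, led by 2.04 and 1.74. Among naive pluripotency genes, Klf5 and Tfcp2l1 each had 4 members, of 27 and 31 regions, led by 4.10 against 1.73 at Klf5 and 2.47 against 1.89 at Tfcp2l1; Klf4, Nr5a2 and Esrrb had none. Among epiblast genes, Utf1 had 5 of 25, led by 2.01 and 1.83, and Dnmt3a, a DNA methyltransferase, had 4 of 42, led by 1.498 and 1.58. Otx2 had 2 of 12, led by 2.62 and 1.73, and Fgf5 had none. In the FGF pathway, the member that leads at Fgfr2, a receptor, had 3.61 and 1.89, and the feedback gene Spry1 had none. In the WNT pathway, Sp8, a zinc finger target gene, had 3 of 19, led by 2.38 and 1.56. Tcf7l2 had 6 of 57, led by 2.27 and 1.85, and Dkk1, a secreted WNT inhibitor, had 4 of 7, led by 2.12 and 2.11. Over all regions 6.47% were members, and 54.9% of coding genes had at least 1 within 50 kb. Genes with the most members of a list were named by rule, and a share of so few regions is uncertain. In the Nodal and BMP pathways, Smad7, an inhibitory SMAD, had 4 of 28, and Bmp2, a ligand, had 1 of 4 with the higher value in SOX2-OFF, at 1.74 against 2.30. Tfap2a, a surface ectoderm and trophoblast factor, had 1 of 16, 164 bp beyond the gene, with 3.60 in SOX2-ON and 1.45 in SOX2-OFF. Gata6, Hhex, Gsc, Eomes, Bmp2 and Tfap2a were named after their values were seen.

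Caudal genes had 7 members in 205 regions. T, Cdx2 and Fgf8 had none within 50 kb, Cdx1 had 1 of 25 regions with 1.52 and 1.69, Nkx1-2 had 2 of 19, led by 1.77 and 1.67, and Meis3 had 3 of 21, led by 1.64 and 1.595.

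Members were spread over the genome, with a few dense stretches. Of 2070 windows of 1 Mb, 1875 held a member, with 4.51 per window on average. The densest, chr4:108000001-109000000, held 30 members of 153 regions, none of them in families 1 to 3 and none above 1.99-fold enrichment in SOX2-ON. Within it, Zfyve9, which encodes an anchor of SMAD proteins, had 18 members of 51 regions in its gene body and 50 kb on either side, or 35.3%, and the overlapping 3110021N24Rik had 12 of 37. In the regions of all 3 lists in that window the median log2 ratio to CEpiLC was 0.092 for SOX2-ON and 0.030 for SOX2-OFF, and over the 16 chromosomes the chromosome medians ran from 0.054 to 0.140 and from −0.0009 to 0.039. The second, at chr2:63000001-64000000 with Kcnh7 and Fign, held 23 of 72, of which 3 were in families 1 to 3. Windows on chromosome 5 from 134000001 to 135000000 and on chromosome 4 from 141000001 to 142000000 each held 22, of 228 and 235 regions. A window on chromosome 1 from 118000001 to 119000000, with Gli2 and Tfcp2l1, held 19 of 152. By gene, Fgfr2 led with 27, but its gene record spans 2961 kb and held 417 regions, so its share of 6.47% was that of all regions; Wdfy3 had 15 of 90, Macrod2 14 of 118, Pde4d 13 of 137 and Agbl4 12 of 67. The 3 remaining gene models of the leading 10, Gm37388, Gm37013 and Gm42416, overlap each other across the protocadherin cluster of chromosome 18 and had 12 members each.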

How the data were processed

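Each of the 3 libraries was made from 50000 cells with at most 12 PCR cycles. As the study's methods and the labels describe, the authors trimmed and aligned the reads to mm10, filtered them and called broad peaks per sample with MACS2; the aligner's version is not given in the sources used here. The deposited lists give, for each peak, the ratio of pileup to background (fold enrichment), −log10 p, −log10 q and a score that the authors' caller derives from −log10 q and that was not used. No list holds a −log10 q under 1. Read totals are not given in these files, so depth is unknown. Peaks on the 16 autosomes other than 6, 8 and 11 were merged with a gap of 0 bp (bedtools 2.31.1), and the best peak by −log10 p stands for each region. Gene positions were from GENCODE on GRCm38, the assembly of mm10. A promoter lay within 1 kb of a start. Families were found with BLAST 2.17.0 (word 28, identity of at least 80% over 200 bp) and motifs by exact letters on both strands of the central 200 bp (Python 3.11.15). Intervals are 95% Wilson intervals. The steps were tested on simulated data. With 1 sample in each group there is no test.

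Members and lists were chosen with earlier results of these data known. Regions named were the 12 members with the best worse rank, the strongest member for up to 5 genes with the most members of each of 11 gene lists, the 10 genes and 5 windows of 1 Mb with the most members, the strong members with the 5 highest and 5 lowest ratios of SOX2-ON to SOX2-OFF, and strong promoters; of these, some are given only in counts. Others are said to have been named after their values were seen. The gene lists covered naive pluripotency, epiblast, anterior neural, streak, caudal, WNT, FGF, Nodal and BMP, epithelium and matrix, extra-embryonic and two-cell-like genes, of which those outside the 16 chromosomes were not counted.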

Additional observations from a re-analysis of the deposited data

How the results depend on the processing

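Of 61 values recomputed under alternatives, 32 moved by less than their counting interval, the members' interquartile range or 1.5 times, and 29 moved further. Whether a value changed direction was not assessed. Alternatives for the shares of families 1 to 3 and of the GATA motif, and those that left out the families, were chosen after seeing the data. The number of members was 3376 among the strongest 50000 peaks of each list and 22781 over all autosomes. Strong members numbered 220 with peaks at a −log10 q of at least 5, 100 among the strongest 50000, 10 with under 50% soft-masked bases, 17 without families 1 to 3, 3 within rank 10000 and 804 within rank 40000. The distal share was 87.89% at a −log10 q of at least 2, 82.45% at 5, 87.38% among the strongest 50000, 86.85% with under 50% soft-masked bases, 87.81% without the families and 80.53% at 2.5 kb from a start. The SOX motif share of all members, 3.656%, was 3.252% at a −log10 q of at least 5, 4.22% with under 50% soft-masked bases, 4.105% without the families and 13.71% over whole regions, where all regions had 11.15%. Families 1 to 3 made up 13.41% of members at a −log10 q of at least 2, 23.13% among the strongest 50000, 10.24% by 10% overlap, 12.56% at 1 kb or more from a CEpiLC peak and 6.501% over all autosomes. Of their regions, CEpiLC lacked 78.37% and 89.07% at a −log10 q of at least 2 and 5 and 82.56% among the strongest 50000. The GATA share was 4.093% at a −log10 q of at least 5, 6.573% among the strongest 50000 and 4.33% over all autosomes. Under the first and second of these the regions of all 3 lists had 2.30% and 2.46%. Leaving peaks out by −log10 q also removes weak CEpiLC peaks, so regions that all 3 lists shared can become members; other causes were not tested. No paired analysis was possible because there was 1 sample for each condition. Depth cannot be read from the files, and a missing CEpiLC peak is a peak below that list's limit, not closed chromatin.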
